A study of Homo sapiens with 10 samples.

Results

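Camptothecin-only regions are stretches of accessible chromatin that were called in parental CCRF-CEM cells after camptothecin and in no other parental library. Peaks from the 10 deposited lists that shared 1 bp or more on chromosomes 1 to 22 and X were joined, which gave 35505 regions. A region was a member when the parental camptothecin list held a peak in it and the parental DMSO list and the 3 parental prexasertib lists held none. The members were thus chosen by which lists held a peak, and through that on the peak caller's confidence in each list. By this rule 2293 regions (6.46% of all regions) were members. They made up 10.7% (10.3% to 11.1%) of the 21432 regions called with camptothecin, and 32.3% (31.2% to 33.4%) of the 7092 regions called with camptothecin and not with DMSO. Those 7092 regions are 20.0% of all regions, a background that the rule itself used and from which nothing is read.

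CCRF-CEM is a human T lymphoblast line from a leukemia. The camptothecin library came from parental cells, labelled wild-type, given 100 nM camptothecin for 4 h. The other parental libraries came from cells given DMSO or 100 nM prexasertib for 2, 4 or 6 h, and the knockout libraries came from cells labelled SLFN11 gene knockout, with the same 5 treatments. Whether the knockout line is 1 clone is unstated in the labels. The assay was ATAC-seq, which reads out where a transposase can reach the DNA. Each of the 10 groups holds 1 library, so no value below has a replicate error and no test was made. The intervals in brackets have 95% confidence and cover counting error over regions only, and regions are not replicates.

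Camptothecin traps topoisomerase I on DNA after it has nicked a strand, and the trapped complex becomes a break when a replication fork runs into it. Prexasertib inhibits CHK1, the checkpoint kinase that restrains origin firing and stabilises forks. SLFN11 is recruited to stressed forks, where it blocks further replication, and its loss makes cells tolerate many replication-damaging drugs. An ATAC-seq peak marks DNA that nucleosomes leave free, most often a promoter or enhancer. In bulk libraries such as these, a site open in few cells and a site slightly open in many cannot be told apart.

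The lists held between 15684 and 23951 peaks on these chromosomes, and depth could be read from them only indirectly. The knockout itself was not checked, since a peak list gives no level of the SLFN11 gene. The genome-wide background pileup, in fragments per position, was taken as the smallest background recovered from a list's deposited values. It was 1.45 in the parental camptothecin library, between 1.33 and 1.63 in the parental libraries, and between 1.59 and 2.1 in the knockout libraries. For parental cells after 4 h of prexasertib, the series record calls the raw read file truncated. Without that list in the rule the members would number 2556. Removing the DMSO or the 2 h prexasertib list from the rule gave 2509 and 2483. Removing the 6 h prexasertib list gave 3916, so this library decides more of the membership than the other lists that exclude regions.

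The members were weak, narrow peaks, as were the regions called in 1 other parental list alone. These values chose the members in part and are given as a description. The median −log10 q of the camptothecin peak, the peak caller's measure of confidence, was 3.56 (3.42 to 3.66), close to the value of 2 at which the lists begin. Regions called in 1 other parental list alone had medians of 3.55 (DMSO) and 2.81, 3.26 and 3.68 (2, 4 and 6 h of prexasertib). Regions called with camptothecin and at least 1 prexasertib time but not with DMSO had a median of 6.06 (5.91 to 6.21), and regions called with camptothecin and DMSO had 22.8 (22.4 to 23.2). Of the members, 1500 (65.4%) had a −log10 q of at least 3, 469 (20.5%) of at least 5 and 39 (1.70%) of at least 10. Over all regions of the camptothecin list these shares were 92.3%, 77.9% and 57.2%.

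The median member peak was 249 bp wide (245 to 253), with quartiles of 206 and 315 bp and a full range of 175 to 913 bp. The median was 325 bp for the regions shared with prexasertib only and 671 bp for those shared with DMSO. For regions called in 1 other parental list alone it was 268 bp (DMSO) and 259, 242 and 233 bp (2, 4 and 6 h of prexasertib). Peaks under 300 bp made up 70.5% of the members and 22.5% of all regions of the list. A single summit was found in 98.8% of the members, against 77.1% of all regions of the list. The member peaks covered 636 kb, which is 5.01% of the 12.7 Mb in camptothecin peaks.

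**Figure D1:**
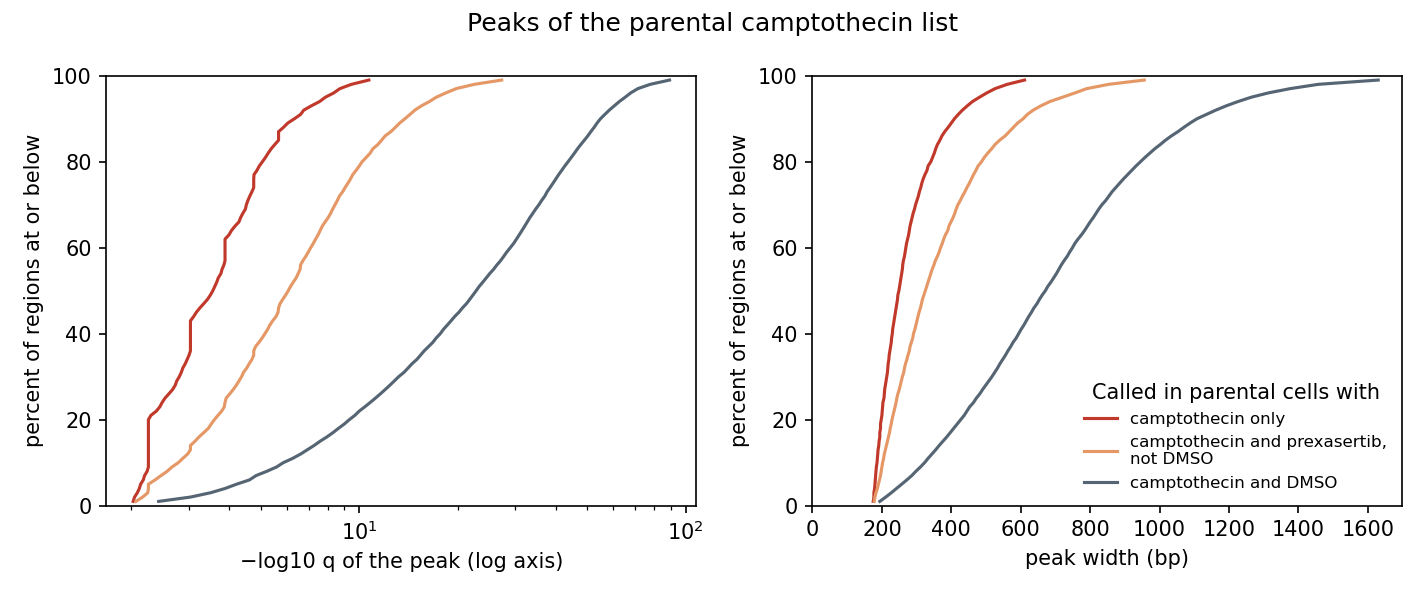
Cumulative distributions of the −log10 q (left, log axis) and the width in bp (right) of parental camptothecin peaks, for regions called with camptothecin only, with camptothecin and prexasertib but not DMSO, and with camptothecin and DMSO. The camptothecin-only curve lies furthest left in both panels, with medians of 3.56 and 249 bp.

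The summit pileup of a member, the number of fragments over its highest point, had a median of 11 and ran from 8 to 57. Divided by the genome-wide background, the median height was 7.61. The median enrichment over the local background, the fold the authors deposited, was 4.09, with a range of 2.02 to 9.00. Many members had a recovered local background close to the genome-wide one. In 1108 of them (48.3%) the local background was below 1.1 times the genome-wide one, against 16.7% of the regions shared with prexasertib only and 3.32% of those shared with DMSO. A local background of at least 2 times the genome-wide one was found beside 258 members (11.3%), against 31.2% and 76.2% in the same 2 sets. The local background was solved from the fold and −log10 p of the called peak, and a low pileup passes the threshold only over a low background. These shares are therefore a description of the calls and not of the place. The regions called in 1 other parental list alone were not compared.

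A peak as high as with camptothecin could still be missed in a shallower library, or in a list with a higher threshold. When each member's camptothecin pileup and local background were scaled to the background of the parental 4 h prexasertib library, 78.7% would reach the lowest −log10 p of that list. The share was 97.0% for the 2 h library, whose list begins at a higher −log10 p. For the other libraries, whose background is higher, nearly all members must pass, since they had passed the camptothecin threshold, and nothing is read from that. The counting error of a pileup with a median of 11 fragments was not tested.

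At the border of the rule, the 3 weakest members had −log10 q values of 2.0012, 2.0015 and 2.0015 with camptothecin. The region chr5:125930615-125931027 was no member because of a 6 h prexasertib peak with a −log10 q of 2.001, against 4.75 with camptothecin. The regions chr3:6778625-6779711 and chr6:25166097-25167471 fell outside through a DMSO peak at 2.0049 and a 2 h prexasertib peak at 2.0122. In all, 539 regions of the camptothecin list were excluded by parental peaks whose best −log10 q was below 3.

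The knockout lists took no part in the choice of members except in drawing the outlines of regions. Of the 2293 members, 1219 (53.2%, 51.1% to 55.2%) were called in no knockout list and so in no other library of the series. The background for this state is 14.0% of all regions, but 54.7% of the 7724 regions called in exactly 1 parental list. Those 7724 regions include the members themselves. The share was 39.7% (35.8% to 43.7%) for regions called with DMSO only. It was 53.5%, 51.6% and 59.0% (57.4% to 60.6%) for those called after 2, 4 and 6 h of prexasertib only. The members' share is near those of the 2 and 4 h sets and lies between those of the DMSO and 6 h sets. A further 407 members (17.7%) were called in 1 knockout list, 311 (13.6%) in 2, 178 (7.76%) in 3, 120 (5.23%) in 4 and 58 (2.53%) in all 5. Regions called in all 5 knockout lists are 42.2% of all regions and 3.15% of those called in exactly 1 parental list.

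Camptothecin in knockout cells did not call more of the members than the other knockout treatments. The knockout camptothecin list called 308 members (13.4%, 12.1% to 14.9%), and the knockout DMSO list 379 (16.5%, 15.0% to 18.1%). After 2, 4 and 6 h of prexasertib the knockout lists called 657 (28.7%), 432 (18.8%) and 557 (24.3%). The background over all regions was 52.4% for camptothecin, 56.2% for DMSO and 67.0%, 59.6% and 64.7% for prexasertib. Over regions called in exactly 1 parental list it was 12.6%, 16.2%, 27.0%, 19.4% and 23.8% in the same order, which is near the members' shares throughout. The camptothecin list was also the shortest knockout list, with 18591 regions, and the 2 h prexasertib list the longest, with 23773, and the members' shares follow the order of the list lengths.

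When every list was reduced to the length of the shortest by −log10 p, the order changed. The rule then gave 610 members, of which the knockout lists called 18.0% with camptothecin and 18.4% with DMSO, and 18.2%, 16.4% and 20.2% after 2, 4 and 6 h of prexasertib. Over all 24149 regions at equal length the shares were 64.4%, 64.5%, 64.8%, 64.6% and 64.7% in the same order. Over the 4656 regions called in exactly 1 parental list they were 16.4%, 16.6%, 16.1%, 15.6% and 15.8%. The differences between the knockout lists over these members were not tested. The background pileup was 1.74 in the knockout camptothecin library, 1.59 with DMSO, and 2.1, 1.85 and 1.99 after 2, 4 and 6 h of prexasertib, and its part was not tested. When the rule ignored the parental 4 h prexasertib list, 15.6% of the members were called in the knockout camptothecin list, 19.4% in the knockout DMSO list and 49.3% in none. When it ignored the parental 6 h prexasertib list, these shares were 20.7%, 25.6% and 39.9%.

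Sets were built by the same rule from each of the other parental lists. There were 602 regions called with DMSO only, and 563, 709 and 3557 called after 2, 4 and 6 h of prexasertib only. The knockout camptothecin list called 13.4% of the camptothecin-only regions, 19.8% of the DMSO-only regions and 13.5%, 12.1% and 10.9% of the 2, 4 and 6 h sets. The camptothecin-only share was above that of the 6 h set by 2.58 percentage points (0.873 to 4.34). It was above by 4.72 points when the camptothecin rule ignored the parental 4 h list. The 6 h set was still built with that list, so the sets then differ in rule and the 4.72 is no like comparison. The 6 h set was also the lower one in the other 4 knockout lists, for example with 28.7% of the camptothecin-only regions and 23.1% of the 6 h set in the 2 h prexasertib list. Knockout camptothecin over knockout DMSO, as a ratio of members called, was 0.813 for the camptothecin-only regions. It was 0.810 for DMSO-only regions and 0.854, 0.705 and 0.748 for the 2, 4 and 6 h sets. The parental DMSO-only regions had the highest share in each of the 5 knockout lists.

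**Figure D2:**
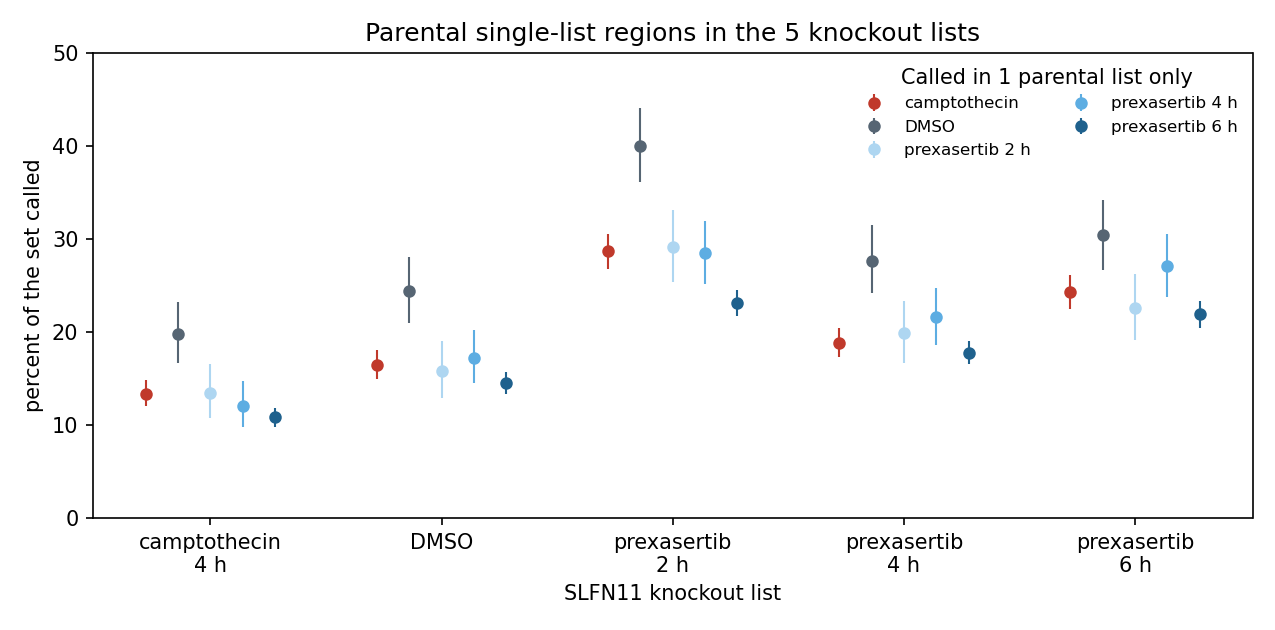
Share of each parental single-list set (percent, with exact 95% intervals) that was called in each of the 5 SLFN11 knockout lists. Camptothecin-only regions run from 13.4% in the knockout camptothecin list to 28.7% in the 2 h prexasertib list, within the range of the other sets.

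Within knockout cells, members differed in call between camptothecin and DMSO in either direction. Camptothecin called 173 members (7.54%) that the knockout DMSO list lacked, where the background is 6.94% of all regions and 6.42% of regions called in exactly 1 parental list. It lacked 244 members (10.6%) that the knockout DMSO list held, with backgrounds of 10.8% and 10.0%. In 135 members both knockout lists held a peak. There the median summit height was 8.05 with camptothecin and 9.41 with DMSO, a median log2 ratio of -0.13 (-0.21 to -0.06), and 28.9% were higher with camptothecin. The log2 ratio was also -0.13 over the 479 regions called in both lists and in exactly 1 parental list, with 34.4% higher. Over all regions called in both lists it was -0.20 (-0.20 to -0.19), with 27.3% higher. Over the local background the ratio at the members was -0.03, with an interval from -0.09 to 0.01.

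Where knockout lists called a member, the peak was again weak for its list. The median −log10 q was 4.18 in the camptothecin list and 4.48 in the DMSO list, and 4.79, 4.11 and 4.2 after 2, 4 and 6 h of prexasertib. The medians over all regions of the same lists were 10.9, 11.3, 12.5, 12.6 and 11.9. Median widths at the members ran from 301 to 350 bp in these lists, where all regions had medians of 561 to 612 bp.

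Stronger camptothecin peaks were found more often in knockout cells. Members called in no knockout list had a median −log10 q of 3.04 (3.04 to 3.11) and a median width of 236 bp. Those called in 4 knockout lists had medians of 4.56 (4.25 to 4.96) and 278 bp, and those called in all 5 had 4.37 (4.05 to 5.02) and 300 bp. The share found in no knockout list was 64.2% for members with a −log10 q from 2 to 3, 57.2% from 3 to 4, 44.9% from 4 to 5, 40.3% from 5 to 7 and 27.2% at 7 or more. For regions called after 6 h of prexasertib only, these shares were 71.4%, 63.7%, 55.7%, 45.6% and 40.6%.

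The regions that prexasertib shared were found in knockout cells more often at every strength. Among regions called with camptothecin and prexasertib but not DMSO, the share found in no knockout list was 20.0%, 19.1%, 13.1%, 8.83% and 4.84% in the same bands of −log10 q. In the band from 3 to 4 it was 57.2% (53.3% to 61.0%) of 652 members, against 19.1% (16.1% to 22.3%) of 656 regions that prexasertib shared. The shared regions had to be called in at least 2 parental lists, which members by definition were not.

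**Figure D3:**
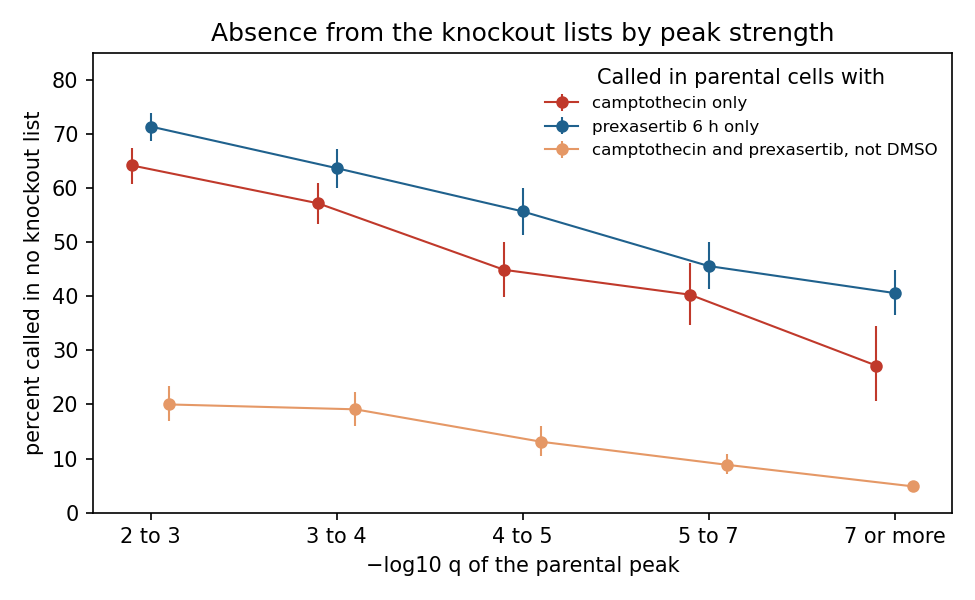
Share of regions called in no SLFN11 knockout list (percent, with exact 95% intervals), by the −log10 q of the parental peak, for camptothecin-only regions, 6 h prexasertib-only regions, and regions called with camptothecin and prexasertib but not DMSO. The camptothecin-only line falls to 27.2% in the strongest band and stays above the shared regions, which fall to 4.84%.

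Chromosome 8 was left out when single members were named. Of the other chromosomes, the 10 strongest members absent from all knockout lists were at most 308 bp wide. Positions are on build hg19, and no annotation of them was used here. The highest −log10 q among them was 15.2 at chr7:61608779-61608967, a peak of 189 bp with a deposited fold of 9.00 and a height of 14.5. It was followed by chr1:62248426-62248686 with a −log10 q of 14.0 and a width of 261 bp, and chr15:74346484-74346791 with 13.6 and 308 bp. At chr3:197798811-197799053 the −log10 q was 11.5, at chr4:66837509-66837744 it was 10.7, and at chr5:145326196-145326427 it was 10.7. The others of these 10 lay at chr16:30563240-30563427, chr1:208195117-208195386, chr18:74634227-74634430 and chr1:234908153-234908338, with values from 9.64 to 10.2. By the way they were chosen, none of the 10 had a peak in any of the other 9 lists.

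The strongest member called in all 5 knockout lists was broader there than in parental cells. At chr17:40688107-40688815 the knockout peaks were 595 bp wide (camptothecin), 575 bp (DMSO) and, at the 3 prexasertib times, 701, 581 and 538 bp, against 184 bp in the parental camptothecin list. Its −log10 q was 9.20, 10.1, 22.1, 18.7 and 9.54 in those knockout lists and 12.2 in parental cells with camptothecin. The site was thus open in DMSO-treated knockout cells and crossed the threshold in parental cells only with camptothecin.

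At chr15:100847610-100848268 the knockout −log10 q was 4.46 with camptothecin, 5.77 with DMSO and 12.8, 5.22 and 6.60 after prexasertib, against 10.8 in the parental camptothecin list. At chr1:3634175-3634971 it was 6.48 with camptothecin, 3.07 with DMSO and 15.6, 2.94 and 2.18 after prexasertib, against 10.5 in the parental camptothecin list. At chr10:18094778-18095236 the knockout values were 7.38, 9.18, 13.5, 9.01 and 5.85, against 9.64. At these sites the 2 h prexasertib list held the highest knockout value.

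At chr12:123873095-123873580 and chr11:65343167-65343692 the parental camptothecin summits were high, at 25.6 times the genome-wide background each, while the deposited folds over the local background were 3.73 and 3.21. These members thus stood on a raised local background, and the 4 h prexasertib list held their highest knockout values, 20.7 and 14.4. The others of the 10 strongest lay at chr15:77314097-77314784, chr2:170309324-170310144, chr5:14794454-14795106 and chr1:117046647-117047470, with parental −log10 q values from 7.96 to 8.94. The highest knockout value was in the 6 h prexasertib list at the chromosome 15 and 2 sites (12.2 and 6.74), in the 2 h list at the chromosome 5 site (9.49) and in the 4 h list at the chromosome 1 site (9.81).

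The share of members called with camptothecin alone in knockout cells too was near its background. Of the 2293 members, 40 (1.74%, 1.25% to 2.37%) were called in the knockout camptothecin list and in no other knockout list, and they are 5.57% of the 718 knockout camptothecin-only regions. The background for this state is 2.02% of all regions and 1.53% of those called in exactly 1 parental list, and the members' interval takes in both. A share of 1.96% of the members was called in the knockout DMSO list alone, and 6.72%, 3.31% and 4.01% in the 2, 4 and 6 h prexasertib lists alone. Of the parental DMSO-only regions, 2.16% (1.15% to 3.66%) were knockout camptothecin-only regions, and of the 2, 4 and 6 h prexasertib-only sets 0.71%, 2.4% and 1.24% (0.9% to 1.66%). The interval for the camptothecin-only members overlaps those of the DMSO-only and 6 h sets.

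Over these 40 members the median −log10 q was 3.52 in knockout cells and 3.48 in parental cells. The strongest in parental cells was chr20:32156214-32156590, with a −log10 q of 6.36 and a width of 339 bp in knockout cells and 13.8 and 297 bp in parental cells. The region chrX:62470063-62470355 had 8.25 in knockout and 8.60 in parental cells, and chr1:232534686-232534956 had 8.58 and 6.79. At chr2:61763811-61764234 the values were 2.80 and 7.08, and at chr1:226067665-226068098 they were 2.13 and 5.46.

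The 5 widest member peaks measured 739 to 913 bp. The widest, chr1:31229548-31230460, had a −log10 q of 4.60 and no knockout peak. The next were chr3:20552960-20553757 at 798 bp, chr6:128580368-128581898 at 771 bp, chr14:91660558-91661320 at 763 bp and chr16:85495316-85496232 at 739 bp. The chromosome 6 and 16 regions were called in all 5 knockout lists, and the regions on chromosomes 1, 3 and 14 in none. The highest −log10 q of any member outside chromosome 8 was 17.1 at chr12:122227787-122228051, a region chosen after its values were seen. It was called in knockout cells with camptothecin (7.12) and after 2 h of prexasertib (3.06) and in no other knockout list.

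The members were spread over all chromosomes, but unevenly in relation to the camptothecin gain. Chromosome 18 had 66 members among its 142 regions called with camptothecin and not with DMSO, or 46.5% (38.1% to 55.0%), and chromosome 4 had 123 of 273, or 45.1% (39.1% to 51.2%). Chromosome 19 had 73 of 380, or 19.2% (15.4% to 23.5%), the X chromosome 51 of 219 (23.3%), and chromosome 17 had 120 of 454 (26.4%). The value over all chromosomes was 32.3%. Chromosome 3, with 37.4% (32.6% to 42.4%), also had an interval above it.

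On chromosome 19, 307 of the 380 gained regions were also called after at least 1 time of prexasertib. The 6 h prexasertib-only regions, as a share of the 6 h gain, were 37.6% on chromosome 19 (198 of 527) and 41.5% over all chromosomes, and on chromosome 18 they were 70 of 140. With a −log10 q of at least 5 in every list the camptothecin-only share was 12.9% on chromosome 19, 41.9% on chromosome 18 and 22.9% over all. At equal list lengths it was 14.2% on chromosome 19 (9.82% to 19.5%), 26.3% on chromosome 18 (13.4% to 43.1%) and 22.3% over all. The chromosome 18 value then rests on 38 gained regions, and its interval takes in the value over all chromosomes, while that of chromosome 19 lies below it. Chromosome 4 had 29.1% (22.4% to 36.5%) at a −log10 q of at least 5 and 26.7% (17.9% to 37.0%) at equal lengths, and both intervals take in the value over all chromosomes. So do those of chromosome 3, with 24.9% (19.7% to 30.7%) and 26.7% (19.0% to 35.5%). Chromosome 17 had 18.1% (14.4% to 22.4%) and 16.9% (12.1% to 22.6%), and only the first interval lies below the value over all chromosomes. The X chromosome had 19.5% (14.1% to 25.8%) and 13.3% (7.26% to 21.6%), and only the second lies below it. Other chromosomes had an interval apart from that value under an alternative alone. At a −log10 q of at least 5 these were chromosome 10, with 31.1% (25.2% to 37.6%), and chromosome 22, with 14.7% (9.43% to 21.4%). At equal lengths it was chromosome 20, with 31.9% (23.4% to 41.3%).

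**Figure D4:**
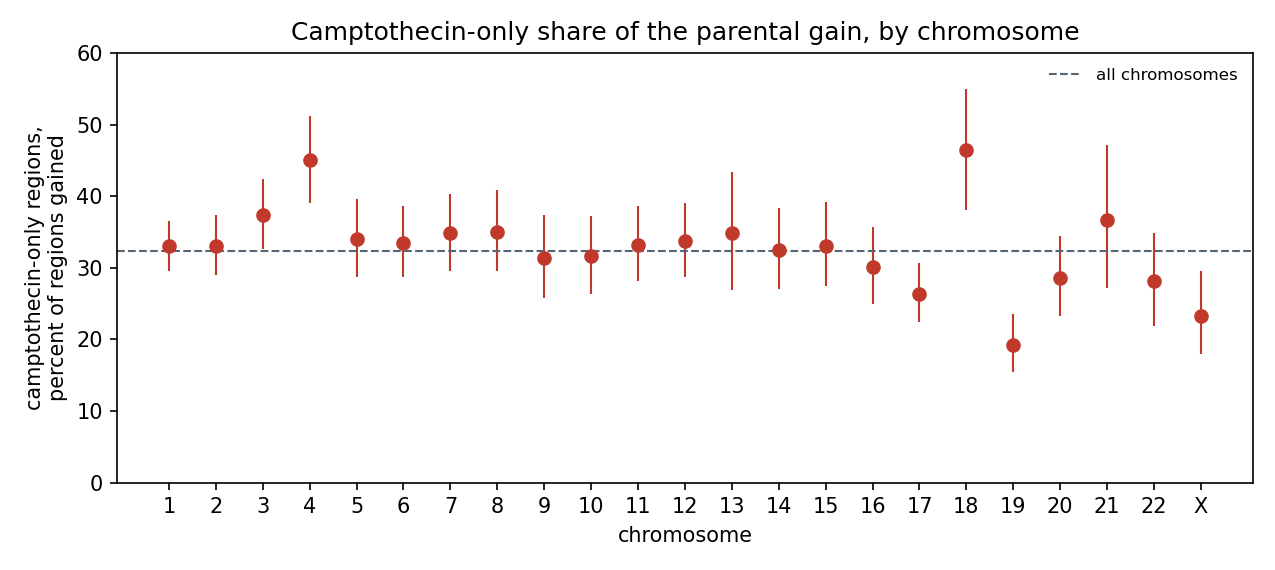
Camptothecin-only regions as a percent of the regions called with camptothecin and not with DMSO in parental cells, by chromosome, with exact 95% intervals and the value over all chromosomes as a dashed line. The intervals of chromosomes 3, 4 and 18 lie above the line of 32.3% and those of chromosomes 17, 19 and X below it.

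By median gap and 10 kb share, members lay somewhat farther from regions open with DMSO than all regions not called with DMSO. In both they lay within the range of the prexasertib-only sets. The median gap from a member to the nearest parental DMSO region was 42.0 kb, against 28.5 kb for the regions shared with prexasertib, 36.4 kb for all 19808 regions not called with DMSO, and 50.5, 36.9 and 35.8 kb for the 2, 4 and 6 h prexasertib-only sets. Within 1 kb of a DMSO region lay 61 members (2.66%), the same share as the 2.66% of all regions not called with DMSO. Within 10 kb lay 365 members (15.9%, 14.4% to 17.5%), against 18.8% (18.3% to 19.4%) of all regions not called with DMSO. Of the regions shared with prexasertib it was 22.5% (21.4% to 23.7%). For the 2, 4 and 6 h prexasertib-only sets the 10 kb share was 14.4%, 19.7% and 18.1%. The members' 10 kb share was 28.2% when regions were matched by 50% reciprocal overlap and 20.8% at equal list lengths. Under the 50% matching a member may partly overlap a DMSO peak, and such members are counted in the 28.2%. How many they are was not counted. The median −log10 q was 3.66 (3.22 to 4.06) for members within 1 kb of a DMSO region, 3.59 (3.45 to 3.71) from 1 to 100 kb and 3.35 (3.04 to 3.64) beyond 100 kb, with intervals that overlap.

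The median gap from a member to the nearest other member was 288 kb, against 146 kb between 6 h prexasertib-only regions, which are more numerous. Another member lay within 10 kb of 92 members (4.01%), against 7.39% in the 6 h set. No comparison at equal numbers was made. Of the 1 Mb windows that held any member, 774 held 1 and 378 held 2, and the fullest held 7. That window was chr18:77000001-78000000, where 7 of 19 camptothecin regions were members.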

How the data were processed

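The authors deposited 1 peak list per library, in hg19 coordinates. MACS2 2.1.2, BWA 0.7.17, Trimmomatic 0.39, Trim Galore 0.6.2, Picard 2.9.2 and SAMtools 1.8 are named in the submitters' processing notes. Their parameters, any control, transposase shifting and duplicate removal were not given there. The deposited columns used were start and end, fold (the ratio at the summit over the local background), −log10 p and −log10 q; the deposited score is the −log10 q times 10 in whole numbers. Lines with equal start and end were counted as 1 peak.

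Each list's pileups were solved from its fold and −log10 p values, and 99.7% to 99.8% of its summits matched to 0.001, taking fold as pileup plus 1 over background plus 1; the smallest background of a list is its genome-wide background. Shares have exact (Clopper-Pearson) intervals, medians order-statistic intervals, and the difference of 2 shares a Newcombe interval. With 1 library per group there was no test. Scripts (Python 3.11.15, SciPy 1.17.1) were tested on simulated data. Members, comparison sets and lists were chosen with earlier results of these data known. Regions were named by rank of −log10 q or width in Parent_CPT4h within fixed knockout states: the 10 highest in none and in all 5 lists, the 5 highest with camptothecin only and the 5 widest, leaving out chromosome 8. An annotation, gene names and sequence on hg19 were not used here, so planned gene, motif and T cell marker checks were not made. Positions are 1-based.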

Additional observations from a re-analysis of the deposited data

Results flagged for a closer look

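Sequences outside chromosomes 1 to 22, X and Y, such as alternative haplotypes, unplaced contigs and the mitochondrial sequence, held 777 merged regions that enter none of the comparisons above. Of these, 57 were called in the parental camptothecin list and in no other parental list, against 12 in the parental DMSO list alone, and this difference in count is what drew attention to them. They are 11.7% (8.99% to 14.9%) of the 487 such regions called with camptothecin and 5.06% (2.64% to 8.68%) of the 237 called with DMSO. On chromosomes 1 to 22 and X the camptothecin share was 10.7%, which lies within its interval here. In the 2, 4 and 6 h prexasertib lists alone there were 9, 13 and 105, or 3.4%, 3.56% and 18.7% (15.5% to 22.1%) of the such regions called there. Among the 57, 35 lay on haplotype sequences, 37 were called in no knockout list, and the median −log10 q was 3.88. The parental DMSO list alone had 0 on haplotype sequences, 8 called in no knockout list and a median −log10 q of 2.98. The 6 h prexasertib list alone had more than camptothecin, with 60, 72 and 4.54 in the same order. The 2 h list alone had 0, 6 and 4.18, and the 4 h list alone 6, 10 and 3.89. The shares of all 777 regions in these states are not given here, so nothing is read from these counts.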

How the results depend on the processing

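Of 76 values under alternatives, 20 stayed within their limits, 56 moved and 0 reversed. Counts, shares and medians of −log10 q and width are never negative, so no change of sign was possible for them. For these values nothing is read from the 0. Only the difference in share from the 6 h prexasertib-only set and the log2 height ratio have a sign to change. The difference ran from 2.32 points (50% reciprocal overlap) to 10.9 points (camptothecin peaks of at least 10), and the log2 ratio of -0.13 became -0.03. No paired analysis was possible because each group has 1 library and no test was made. The rules without the DMSO, 2 h or 6 h prexasertib list were chosen after seeing the data. Except where fewer or stronger peaks enter by construction, the cause was not tested.

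With a −log10 q of at least 5 in all lists there were 1222 members, 7.32% of the camptothecin regions, with a median −log10 q of 6.61 and a width of 312 bp. The knockout camptothecin list called 16.0%, the knockout DMSO list 23% and no knockout list 40.9%. The excess over the 6 h prexasertib-only set in the knockout camptothecin list was 4.57 points. With at least 10 for the camptothecin peak, and no such cut in the lists that exclude regions, there were 39 members. They are 0.318% of the 12251 camptothecin regions that reach 10. Their medians were 11.5 and 257 bp, their shares 28.2%, 35.9% and 20.5%, and 12.8% lay within 10 kb of a DMSO region. The excess was 10.9 points over a 6 h set also cut at 10, and its interval (-2.07 to 27.0) takes in 0.

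At equal list lengths there were 610 members (3.94%), with medians of 7.62 and 303 bp, shares of 18.0%, 18.4% and 49.5%, and 20.8% within 10 kb. With 50% reciprocal overlap there were 3735 (17%), with medians of 3.88 and 259 bp and shares of 11.4%, 13.8% and 58.6%. Of these, 28.2% lay within 10 kb of a DMSO peak or partly overlapped one. Merging peaks up to 500 bp apart gave 10.2% of the camptothecin regions, 50.8% in no knockout list and 14.2% within 10 kb. Merging parental lists only gave 11.4%, a knockout DMSO share of 18.2%, 49.4% in no knockout list and 18.7% within 10 kb.

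Without the parental 4 h list the members were 11.9% of the camptothecin regions, with shares of 15.6%, 19.4% and 49.3%. The excess was 4.72 points, over a 6 h set still built with that list. Without the DMSO list the shares were 15.8%, 19.2% and 49.7%, without the 2 h list 14.9%, 18.8% and 50.3%, and without the 6 h list (3916 members) 20.7%, 25.6% and 39.9%. The knockout camptothecin share was below the knockout DMSO share in each setting for which both are printed. The same order held over all regions (52.4% against 56.2%) and over regions called in exactly 1 parental list (12.6% against 16.2%). At equal list lengths the members' shares were 18.0% (15.1% to 21.3%) and 18.4% (15.4% to 21.7%), with intervals that overlap. Nothing particular to the members is read from this order. The log2 height ratio of -0.13 was -0.03 over the local background. Depth per library is known only through the background pileup, which limits what the absence of a weak peak shows.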
